A study of Mus musculus with 1 sample.

Results

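The 8 genes described here carry iron into developing blood cells, store it or release it: Tfrc, Steap3, Slc11a2, Slc25a37, Fth1, Ftl1, Hmox1 and Slc40a1. They were chosen by name, with earlier results of these data known. All 8 of 8 were found among the 25661 genes of a single-cell RNA-seq count table from mouse bone marrow. The study sorted cKit+Lin- progenitors and a population named GMP-MoP from 1 untreated mouse and from 1 mouse injected with LPS (lipopolysaccharide, a bacterial cell wall component), and a population named cMoP from 1 untreated mouse. The age, sex, strain and genotype of the mice, and the dose and timing of LPS, are not given in the sources used here. Each sorted population carried 1 of 5 DNA-barcoded PE-streptavidin tags, A961 to A965, and all were pooled into 1 library on a microwell capture system (BD Rhapsody, with cDNA amplified by TAS-Seq). The labels do not say which tag marked which population or mouse, so no tag is given a treatment here. A difference between tags cannot be told apart from a difference between mice, their sex, sorted populations or treatments.

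Iron reaches progenitors bound to transferrin, which the transferrin receptor (Tfrc) takes into endosomes. There the reductase Steap3 converts ferric to ferrous iron, the transporter DMT1 (Slc11a2) moves it to the cytosol and mitoferrin-1 (Slc25a37) into mitochondria, where haem and iron-sulphur clusters are made. Spare iron is stored in ferritin, a shell of heavy (Fth1) and light (Ftl1) chains, haem oxygenase-1 (Hmox1) frees iron from haem, and ferroportin (Slc40a1) is the known iron exporter of mammalian cells. Erythroid precursors need the most iron because they make haemoglobin, while marrow macrophages recycle it from old red cells.

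Several of these transcripts carry an iron-responsive element, a short hairpin with a 6-base loop bound by iron regulatory proteins when iron is scarce. In a 3′ UTR the bound protein protects the mRNA from decay, whereas in a 5′ UTR it blocks translation, so counts of mRNA report the first kind of control and not the second. The letters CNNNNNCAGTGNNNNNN, with the 5 bases on each side of the loop able to pair (G with U allowed), were searched on the transcribed strand of annotated UTRs. They were found in 4 of 8 members and in 155 of 21875 genes (0.709%). A match describes letters only. The sequences are shown because they set apart the receptor, with 4 matches after its coding region, from the storage and export genes, with 1 each before theirs. Capitals mark the loop, each line runs 5′ to 3′ on the transcribed strand, and letters are DNA.
Tfrc, 3′ UTR, chr16:32631219-32631248 (GRCm38, + strand): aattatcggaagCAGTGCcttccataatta
Tfrc, 3′ UTR, chr16:32631598-32631627 (GRCm38, + strand): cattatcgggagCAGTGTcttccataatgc
Tfrc, 3′ UTR, chr16:32631663-32631692 (GRCm38, + strand): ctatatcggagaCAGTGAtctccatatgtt
Tfrc, 3′ UTR, chr16:32631710-32631739 (GRCm38, + strand): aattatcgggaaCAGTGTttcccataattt
Fth1, 5′ UTR, chr19:9982732-9982761 (GRCm38, + strand): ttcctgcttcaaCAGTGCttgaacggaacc
Ftl1, 5′ UTR, chr7:45459778-45459807 (GRCm38, - strand): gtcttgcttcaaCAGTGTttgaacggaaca
Slc40a1, 5′ UTR, chr1:45925464-45925493 (GRCm38, - strand): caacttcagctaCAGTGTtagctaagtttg

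The genes lie at chr16:32608920-32632794 (Tfrc, + strand), chr1:120190757-120272705 (Steap3, - strand), chr15:100387898-100425072 (Slc11a2, - strand), chr14:69241848-69285112 (Slc25a37, - strand), chr19:9980598-9985098 (Fth1, + strand), chr7:45457944-45459884 (Ftl1, - strand), chr8:75093621-75100589 (Hmox1, + strand) and chr1:45908068-45926523 (Slc40a1, - strand) of GRCm38. The letters were not found in an annotated UTR of Steap3, Slc11a2, Slc25a37 or Hmox1. Only this strict pattern was searched, so a gene without a match may still carry an element of another form.

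After filtering, 10528 cells were used: 4716 of A963 and 5567 of A965, each loaded with 15000 cells, and 68 of A961, 104 of A962 and 73 of A964, with median counts per cell from 20430.5 to 27801. Cells were placed in 10 lineage gates by marker lists that hold none of the 8 members, and 9004 cells (85.5%) fell in a gate. In A963 and A965 respectively, the gates held 611 and 154 erythroid, 132 and 130 stem, 91 and 83 megakaryocyte, 63 and 75 basophil or mast, 160 and 143 lymphoid, 370 and 285 plasmacytoid dendritic (pDC), 142 and 220 conventional dendritic (cDC), 658 and 1055 granulocyte-monocyte progenitor (GMP), 1252 and 1629 neutrophil and 575 and 966 monocyte cells. Own markers were among the 10 leading genes of each gate in both tags and no other gate's markers were. The same lists placed the cells, so this does not test the gate names. Stem cells had 1 of 7 own markers there in both tags, and monocyte cells 4 of 8 in A963 and 2 of 8 in A965. In monocyte cells the median sum of GMP markers was 43.6 per 10000 counts in A963 and 8.92 in A965. Monocyte markers had median sums of 32.1 and 33.1 there. Eosinophil genes (Prg2, Epx, Prg3) also led the basophil or mast gate of A965. Xist was at 611 CPM in A963 and 11.8 CPM in A965, and Y-linked genes summed to 6.46 and 79.5 CPM. The 2 tags thus differed in sex-linked transcripts, so a difference between them cannot be told apart from a difference of sex either. With 1 library and no tag replicated, no test was possible and no p-value is given. Levels are CPM, a gene's share of all counts in the summed cells named, scaled to 1000000, and ranges in brackets are 95% intervals for counting error alone, since cells of 1 mouse are not replicates. A difference was called at 1.5-fold or more with 10 CPM added to both sides, so that printed folds of genes under about 10 CPM can exceed 1.5 without a call.

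Erythroid-gated cells held the iron uptake route at several times its level in GMP-gated cells. Tfrc, the receptor, was at 192 CPM (187 to 198) in erythroid and 33.8 CPM (31.5 to 36.4) in GMP cells of A963, and at 186 and 46.7 CPM in A965, a ratio of 5.68 (5.26 to 6.14) and 3.98 (3.72 to 4.26). Steap3 was at 84.9 against 10.5 CPM in A963 and 81.2 against 7.11 CPM in A965, ratios of 8.11 (7.08 to 9.32) and 11.4 (9.98 to 13.1). Slc11a2 was at 48.4 against 5.33 CPM and 42.0 against 3.97 CPM, ratios of 9.09 (7.53 to 11.1) and 10.6 (8.81 to 12.7). All 3 genes of the endosomal steps were thus called higher in both tags.

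Slc25a37, the mitochondrial importer, was also called higher, at 106 against 35.9 CPM in A963 and 82.5 against 34.6 CPM in A965, ratios of 2.94 (2.72 to 3.19) and 2.38 (2.17 to 2.62). The heavy ferritin chain Fth1 stood at 5416 CPM in erythroid and 1037 CPM in GMP cells of A963, and at 4801 and 1140 CPM in A965, ratios of 5.22 (5.15 to 5.30) and 4.21 (4.15 to 4.27). The light chain was not called: Ftl1 was at 2750 against 2471 CPM in A963, a ratio of 1.11 (1.10 to 1.13), and at 2726 against 3237 CPM in A965, a ratio of 0.842 (0.830 to 0.855). Nor was ferroportin, with Slc40a1 at 34.2 against 26.0 CPM in A963 and 28.3 against 34.1 CPM in A965, neither past 1.5-fold. Hmox1 was the member lowest in erythroid cells, at 3.72 against 8.12 CPM in A963, not called, and 0.707 against 6.73 CPM in A965, a called difference of 9.51-fold (4.04 to 29.5) that rests on 5 counts and was not called with stricter gates.

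In all, 5 of 8 members were called higher in erythroid cells of each tag, and 0 of 8 in A963 and 1 of 8 in A965 were called lower. Among all genes with at least 10 CPM on either side, 16.1% were called higher and 21.3% lower in A963 (37.4% in all), and 15.9% higher and 21.8% lower in A965 (37.7% in all). The median log2 ratio (10 CPM added) of the 8 members was 1.63 in A963 and 1.42 in A965, beside 0.06 in both tags for all genes tested, and median-of-ratios scaling moved that of all genes to -0.05 in both. The share of members called higher was thus above that of all genes. The members were chosen with earlier results of these data known, so this describes the set and does not test it.

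**Figure D1:**
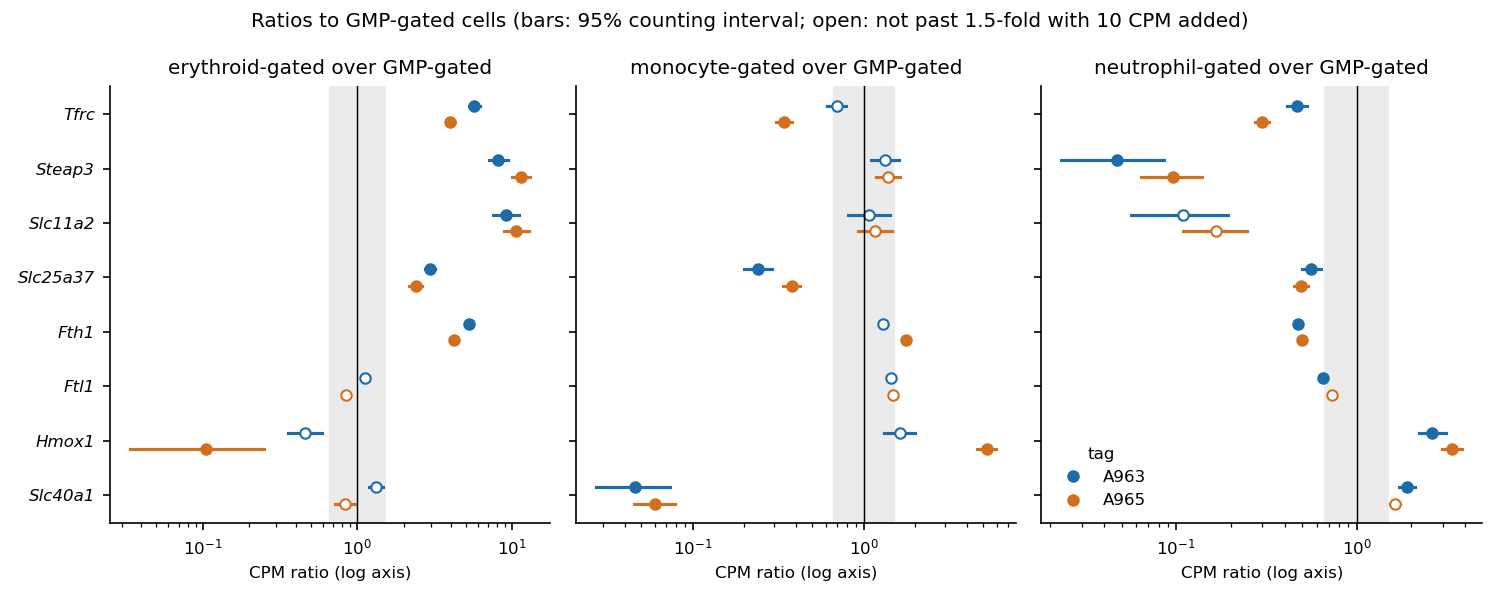
Ratios of CPM in erythroid-, monocyte- and neutrophil-gated cells to GMP-gated cells for the 8 genes, on a log axis, for A963 (blue) and A965 (orange), with bars for the 95% counting interval and a grey band for ratios within 1.5-fold. Filled points passed 1.5-fold with 10 CPM added: Tfrc, Steap3, Slc11a2, Slc25a37 and Fth1 sit to the right for erythroid cells in both tags, and Slc40a1 sits far to the left for monocyte cells.

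For Steap3 and Slc11a2 the erythroid gate also had the largest share of cells with a transcript. With each cell thinned to 8800 counts, Steap3 was seen in 48.4% (44.4 to 52.5) of erythroid cells of A963 and 45.5% (37.4 to 53.7) of A965, beside 0.160% (0.0194 to 0.576) and 0.675% (0.338 to 1.21) of neutrophil cells, where it was lowest. Unthinned, Steap3 was seen in 84.9% and 83.1% of erythroid cells. Slc11a2 was seen in 31.3% and 34.4% of thinned erythroid cells, and in 0.479% and 0.614% of neutrophil cells. Median counts were 41546 and 44316 in erythroid cells and 16456 and 25270 in neutrophil cells. Fth1 was seen in at least 92.6% and Ftl1 in at least 99.3% of cells of every gate in these tags, so those genes differed between gates in level and not in presence.

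Erythroid-gated cells were then split by how much globin mRNA they held, since globins mark the approach to haemoglobin synthesis. The widest range with it was that of Slc25a37. In 4 bins of rising globin share, with medians from 0.0385% to 10.7% of counts in A963 and from 0.0228% to 11.2% in A965, Slc25a37 was at 21.3, 55.2, 106 and 269 CPM in A963 and at 19.1, 44.3, 142 and 275 CPM in A965. Every step was upward in both tags, and the 2 tags followed nearly the same path. The lowest bin lay below the GMP level of 35.9 and 34.6 CPM, and the highest bin lay above every other gate.

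Tfrc started higher and spanned less, from 133 to 167, 203 and 281 CPM across the bins of A963 and from 123 to 192, 200 and 329 CPM in A965. Fth1 went from 3372 to 7208 CPM in A963 and from 2800 to 7546 CPM in A965. Ftl1 went from 2050 to 3197 CPM in A963 and from 1801 to 3328 CPM in A965, with most of the gain in the lower bins. The endosomal reductase and transporter did not share this course: Steap3 went from 88.0 to 78.0 CPM in A963 and from 88.3 to 76.6 CPM in A965, and Slc11a2 from 49.4 to 52.4 CPM and from 50.2 to 43.5 CPM. Both were thus at their erythroid level in cells with almost no globin mRNA.

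Split in 2 at the median globin share of 2.09%, later cells exceeded early cells by 4.63-fold (4.22 to 5.09) for Slc25a37 in A963 and 5.48-fold (4.54 to 6.63) in A965. The ratio for Fth1 was 1.57 (1.55 to 1.58) and 1.51 (1.48 to 1.55). For Tfrc it was 1.58 (1.49 to 1.67), called in A963, and 1.47 (1.32 to 1.64), not called in A965. That made 3 of 8 members called higher in A963 and 2 of 8 in A965, with 0 lower in either tag, while of all genes tested 4.22% were called higher and 13% lower in A963 (17.3% in all) and 6.88% higher and 15.2% lower in A965 (22.1% in all). The median log2 ratio of all genes was -0.17 and -0.13, and -0.03 and -0.02 with median-of-ratios scaling, and with that scaling Tfrc was called in A965 too, at 1.62-fold. Ferroportin went the other way without a call, with Slc40a1 at 29.0 CPM in later and 38.9 CPM in early cells of A963 and at 21.2 and 32.0 CPM in A965. With globins left out of the total, Slc25a37 was at 308 and 317 CPM in the top bin, and with the abundant row CT010467.1 left out as well Tfrc was called in A965, at 1.57-fold.

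**Figure D2:**
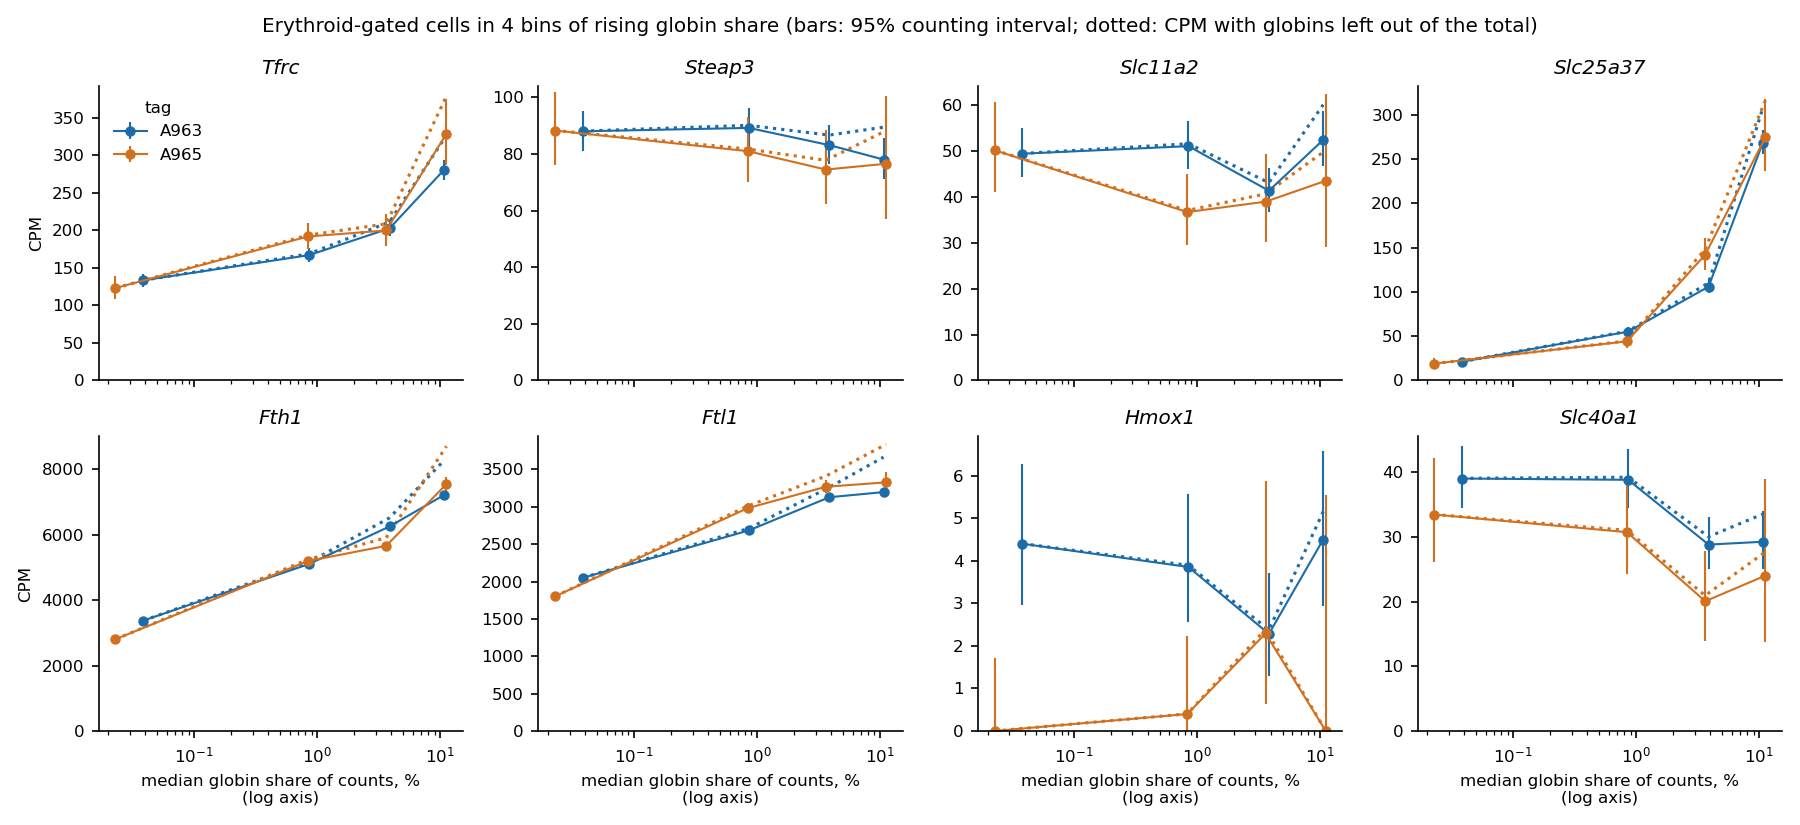
CPM of the 8 genes in erythroid-gated cells of A963 (blue) and A965 (orange), in 4 bins of rising globin share of counts (log axis, %), with bars for the 95% counting interval and dotted lines for CPM with globins left out of the total. Slc25a37 goes from 21.3 to 269 CPM in A963 and from 19.1 to 275 CPM in A965, while Steap3 and Slc11a2 stay nearly level.

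Tfrc was not an erythroid gene alone. Among whole gates it was highest in pDC-gated cells, at 229 CPM (216 to 242) in A963 and 209 CPM (197 to 221) in A965, followed by erythroid cells and then by lymphoid cells at 86.6 and 70.8 CPM. These 3 gates kept that order in both tags, and the counting interval of each ratio to the next left out 1. The later erythroid cells alone, at 238 CPM (230 to 247) and 236 CPM (217 to 256), were not below pDC cells, and the top globin bin, at 281 and 329 CPM, was above them. Thinned to 1 depth, 68.9% of pDC and 71.5% of erythroid cells of A963 held a Tfrc transcript, and 68.8% and 68.2% in A965. The pDC cells were also second to erythroid cells for Fth1, at 2884 and 3038 CPM. Steap3 was at 3.87 and 4.71 CPM there, Slc11a2 at 4.42 and 4.19 CPM and Slc25a37 at 21.6 and 24.1 CPM, below the erythroid level of each. Below the lymphoid gate, cDC, GMP, stem, megakaryocyte, basophil or mast and monocyte cells lay between 16.0 and 48.9 CPM of Tfrc, where most neighbours did not differ beyond counting error, and neutrophil cells were lowest at 15.7 and 13.9 CPM.

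Lymphoid-gated cells were second to erythroid cells for Slc25a37, at 66.0 and 46.7 CPM, and GMP, stem, cDC, megakaryocyte, pDC, basophil or mast and neutrophil cells followed between 17.0 and 35.9 CPM. Monocyte cells were lowest, at 8.64 and 13.1 CPM. For Steap3 the gate after erythroid was megakaryocyte, at 15.5 and 20.1 CPM, and for Slc11a2 it was basophil or mast, at 14.7 and 17.6 CPM. At those low levels the neighbours in the order mostly overlapped.

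**Figure D3:**
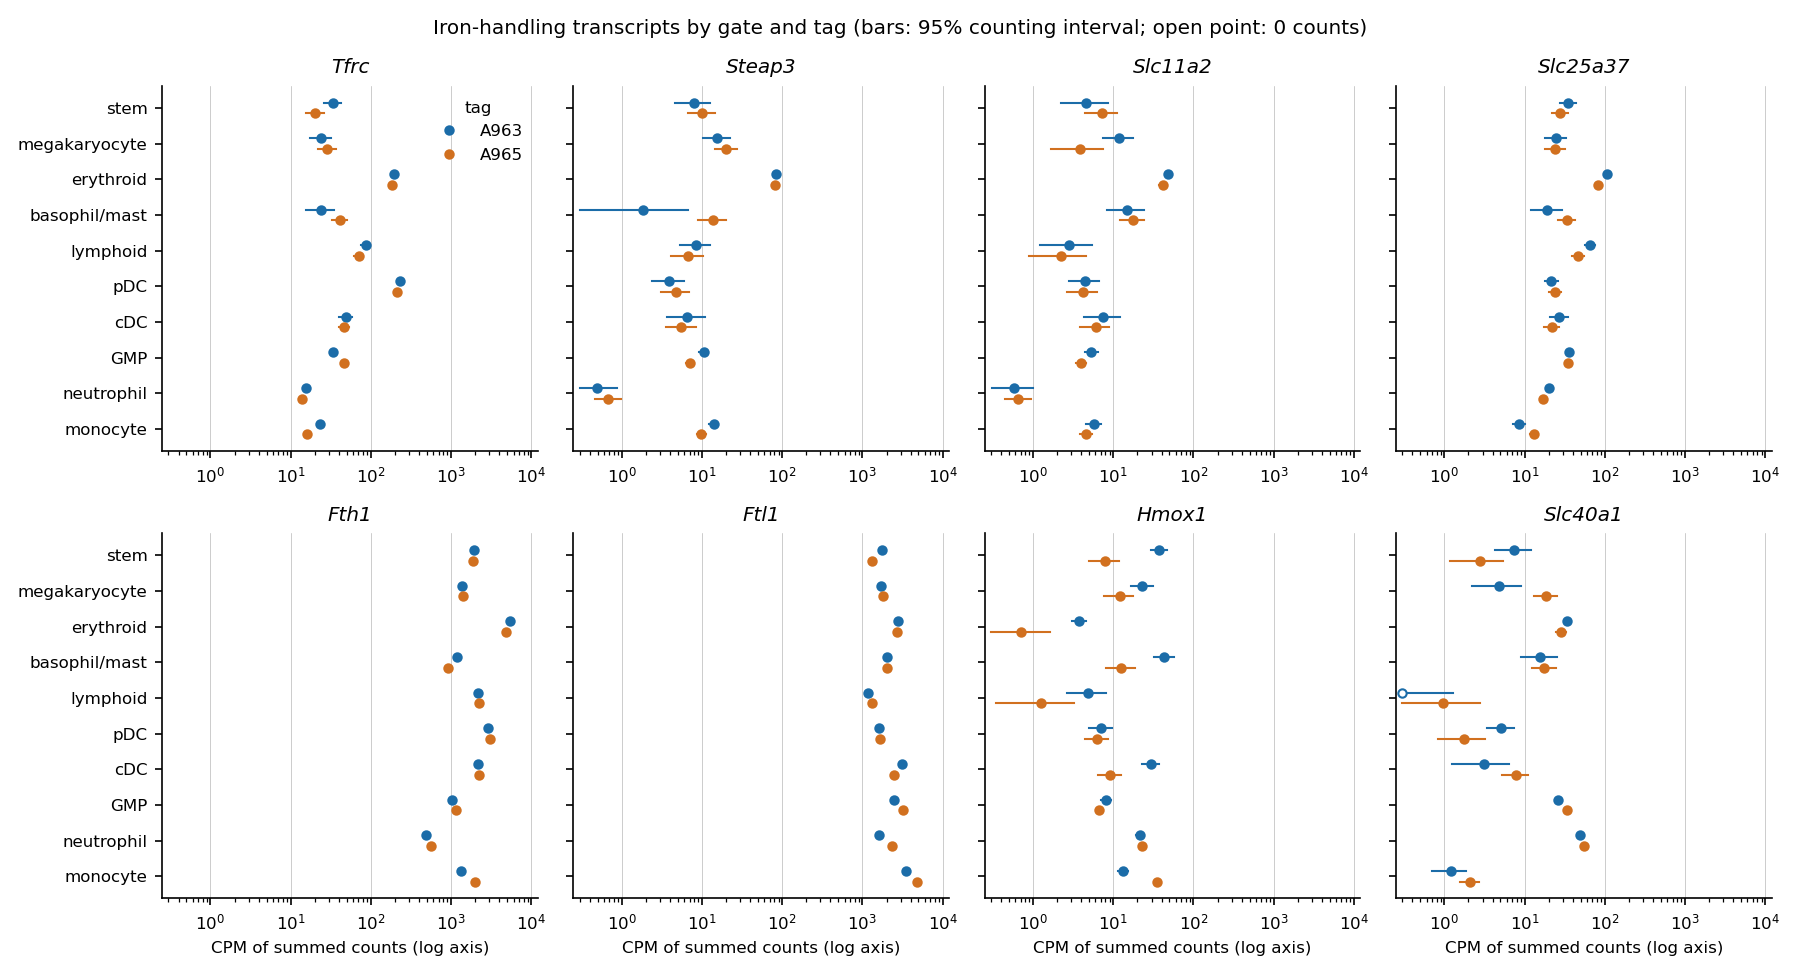
CPM of each gene in the 10 lineage gates of A963 (blue) and A965 (orange) on a log axis, with bars for the 95% counting interval; the open point is a gate with 0 counts (Slc40a1 in lymphoid cells of A963). Tfrc peaks in pDC and erythroid cells, Steap3 and Slc11a2 in erythroid cells alone, and Slc40a1 is near 0 in monocyte and lymphoid cells.

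The balance of the ferritin chains split the marrow into groups. Since the rows of 2 genes may be counted with unequal efficiency, the ratio of Fth1 to Ftl1 counts is used only to compare gates. The 3 highest gates were erythroid, at 1.97 (1.95 to 1.99) in A963 and 1.76 (1.73 to 1.79) in A965, lymphoid, at 1.81 and 1.72, and pDC, at 1.78 and 1.86 (1.81 to 1.90). Erythroid cells led in A963 and pDC cells in A965. The myeloid gates were at the other end: GMP cells at 0.420 and 0.352, monocyte cells at 0.380 and 0.417 and neutrophil cells at 0.304 and 0.240. Stem cells lay between, at 1.12 and 1.43, as did cDC cells at 0.699 and 0.896, megakaryocyte cells at 0.786 and 0.779 and basophil or mast cells at 0.587 and 0.456. The order of GMP and monocyte cells was opposite in the 2 tags, as were those of lymphoid and pDC, erythroid and pDC, and megakaryocyte and cDC cells.

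The gates with high ratios differed in their levels. In erythroid cells Fth1 was at 5416 and 4801 CPM while Ftl1, at 2750 and 2726 CPM, was near the level in all cells of the tag, 2410 and 3043 CPM. In lymphoid and pDC cells Fth1 stood between 2140 and 3038 CPM and Ftl1 between 1179 and 1635 CPM. Later erythroid cells had a ratio of 2.12 against 1.79 in early cells of A963, and of 1.88 against 1.68 in A965. Rows for ferritin copies (Ftl1-ps1, Ftl1-ps2, Ftl2-ps and Fth-ps2) exist beside the genes and may share reads with them, so both chains' levels are uncertain to that extent. Adding the copies changed none of the calls.

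**Figure D4:**
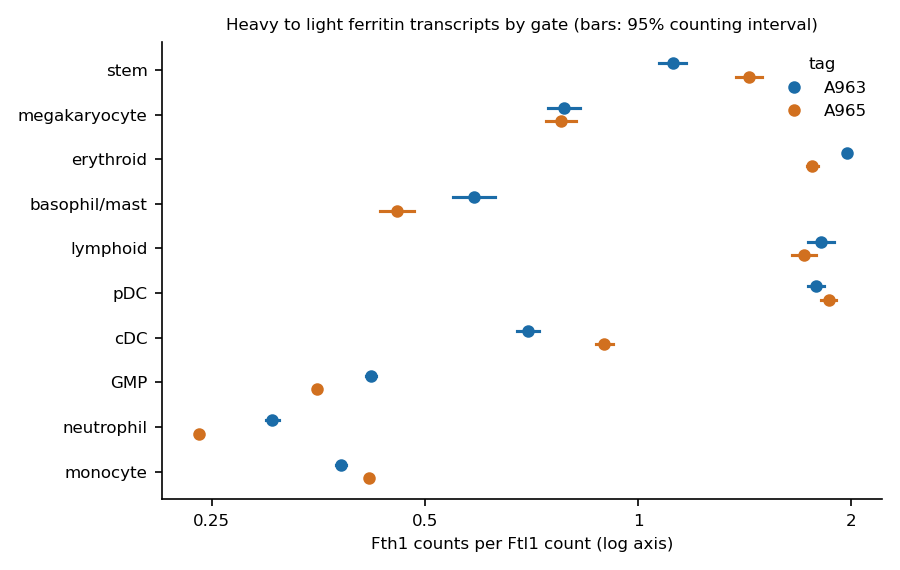
Fth1 counts per Ftl1 count in each gate of A963 (blue) and A965 (orange) on a log axis, with bars for the 95% counting interval. Erythroid, lymphoid and pDC cells sit between 1.72 and 1.97, and GMP, neutrophil and monocyte cells between 0.240 and 0.420.

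Ferroportin was far lower in monocyte cells than in GMP cells and highest in neutrophil cells. Slc40a1 was at 26.0 CPM (23.9 to 28.2) in GMP and 1.20 CPM (0.709 to 1.89) in monocyte cells of A963, and at 34.1 and 2.06 CPM in A965, a called difference of 21.7-fold (13.6 to 36.9) and 16.5-fold (12.7 to 21.9). In neutrophil cells it was at 49.7 and 55.5 CPM, the highest level of any gate in both tags, and 1.91-fold (1.73 to 2.12) and 1.63-fold (1.53 to 1.73) over GMP cells, called in A963 only. In A963 that call was lost with the mean of per-cell CPM (1.57-fold), with cells thinned (1.56-fold) and with stricter gates (1.62-fold). In A965 a call was gained with median-of-ratios scaling (2.38-fold), with 1 CPM added, with looser gates (1.65-fold) and without macrophage-gene cells (1.66-fold). In lymphoid cells of A963 there were 0 counts of Slc40a1 in 160 cells, which allows up to 1.05 CPM (3 counts), and in A965 it was at 0.953 CPM. Ferroportin is also a macrophage gene, and cells with at least 3 summed counts of the macrophage genes C1qa, C1qb, C1qc and Cd5l held 9.63% and 8.36% of the neutrophil gate's Slc40a1 counts. Without them the neutrophil level was 48.0 and 54.6 CPM. In monocyte cells they held 22.2% and 56.1% of the Slc40a1 counts, and without them the level was 0.942 and 0.939 CPM. A single monocyte cell of A965 held 26 of its 57 counts. Low levels were not limited to monocyte and lymphoid cells. Slc40a1 was at 5.16 and 1.75 CPM in pDC, 7.41 and 2.76 CPM in stem and 3.08 and 7.73 CPM in cDC cells.

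Monocyte-gated cells also had less of the mitochondrial importer, with Slc25a37 4.16-fold (3.45 to 5.05) lower than GMP cells in A963 and 2.65-fold (2.36 to 2.97) lower in A965. Tfrc was 1.44-fold lower in A963, not called, and 2.92-fold (2.64 to 3.24) lower in A965. The storage genes were above the GMP level: Fth1 1.30-fold in A963, not called, and 1.76-fold (1.74 to 1.78) in A965, and Ftl1 1.43-fold and 1.49-fold, both just short of a call. Ftl1 passed 1.5-fold in A965 with cells thinned (1.65-fold), weighted equally (1.64-fold) or scaled by median-of-ratios (1.52-fold), and in both tags with stricter gates (1.54-fold and 1.57-fold). Steap3 was 1.33-fold and 1.39-fold and Slc11a2 1.07-fold and 1.16-fold of the GMP level, with no call.

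Hmox1 was the member that differed most between monocyte cells of the 2 tags, though not the only one. It was at 13.2 CPM in A963 and 35.2 CPM in A965 beside 8.12 and 6.73 CPM in GMP cells, ratios of 1.62 (1.32 to 1.99), not called, and 5.23 (4.61 to 5.94). With cells thinned the ratio in A963 was 2.15 and passed 1.5-fold. In total 0 of 8 members were called higher and 2 of 8 lower in A963, and 2 of 8 higher and 3 of 8 lower in A965, where of all genes tested 10.5% were called higher and 5.7% lower in A963 (16.2% in all) and 11.6% higher and 8.79% lower in A965 (20.4% in all).

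Within the monocyte gate, Hmox1 and Fth1 were higher in cells with less of the GMP markers. Over 4 bins of falling GMP marker share, Hmox1 was at 9.14, 11.0, 16.5 and 45.1 CPM in A963 and at 13.6, 17.4, 40.7 and 80.2 CPM in A965. Fth1 was at 1198, 1304, 1569 and 2071 CPM in A963 and at 1598, 1695, 2252 and 2650 CPM in A965. Both genes stepped upward at each bin of each tag. The bins held 206, 217, 93 and 59 cells of A963 and 180, 168, 292 and 326 cells of A965, so the tags differed in how many monocyte cells lay at each end. In every bin Hmox1 and Fth1 were higher in A965 than in A963.

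Neutrophil-gated cells were low in most of the set, but so were most genes relative to GMP cells. The median log2 ratio of all genes tested was -0.42 in A963 and -0.50 in A965, so directions here are read against that shift. Members were called lower for 5 of 8 in A963 and 4 of 8 in A965, and higher for 2 of 8 and 1 of 8. Of all genes tested, 39.3% were called lower and 7.86% higher in A963 (47.2% in all) and 43.9% lower and 5.51% higher in A965 (49.4% in all). Steap3 was at 0.492 and 0.682 CPM, 21.3-fold (11.7 to 43.2) and 10.4-fold (7.18 to 15.7) lower than GMP cells. Slc11a2 was at 0.582 and 0.659 CPM, too low on both sides for a call. Tfrc was 2.15-fold and 3.36-fold lower, and Fth1, at 492 and 568 CPM, 2.11-fold and 2.01-fold lower.

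Scaling by median-of-ratios moved the median gene in this comparison to -0.09 and -0.10, and with it 4 and 3 members were called. Tfrc, Slc25a37 and Ftl1 lost their calls in A963, at ratios of 0.632, 0.763 and 0.889, as did Steap3, Slc25a37 and Fth1 in A965, at 0.140, 0.718 and 0.728, while Slc40a1 gained a call in A965, at 2.38. Hmox1 was higher than in GMP cells under either scaling, at 21.3 CPM in A963 and 22.7 CPM in A965, ratios of 2.62 (2.20 to 3.13) and 3.38 (2.98 to 3.84).

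Between the tags with most cells, the uptake genes were lower in A965 than in A963 over all cells. Tfrc was at 42.1 against 76.9 CPM, Steap3 at 8.97 against 25.2 CPM and Slc11a2 at 5.01 against 14.4 CPM, called differences of 1.83-fold (1.77 to 1.89), 2.80-fold (2.64 to 2.98) and 2.88-fold (2.65 to 3.12). These were 3 of 8 members, where 2.54% of all genes tested were called lower and 4.47% in either direction. Slc25a37, 1.68-fold lower, and Fth1, 1.48-fold lower, were not called, though Slc25a37 was without globins and CT010467.1 (1.70-fold) and without macrophage-gene cells (1.70-fold), and Ftl1, Hmox1 and Slc40a1 were 1.26-, 1.34- and 1.15-fold higher without a call.

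The 2 tags also differed in their share of erythroid cells, and whether that gave rise to this difference was not tested. Erythroid cells made up 13% (12.0 to 13.9) of A963 and 2.77% (2.35 to 3.23) of A965. They held 56.8% of the Tfrc, 76.8% of the Steap3, 76.4% of the Slc11a2 and 56.5% of the Fth1 counts of A963, beside 17.8%, 36.4%, 33.7% and 13.1% in A965. With erythroid-gated cells left out, 0 of 8 members passed 1.5-fold. A965 then stood to A963 at 0.839 (0.806 to 0.873) for Tfrc and 0.786 (0.712 to 0.867) for Steap3. The ratio was 0.787 (0.692 to 0.896) for Slc11a2 and 1.08 (1.08 to 1.09) for Fth1, so these intervals still left out 1. Among erythroid cells themselves 0 of 8 members were called, where 0.795% of all genes tested were. There the ratio was 0.967 (0.909 to 1.03) for Tfrc, 0.956 (0.871 to 1.05) for Steap3, 0.868 (0.762 to 0.985) for Slc11a2, 0.780 (0.712 to 0.853) for Slc25a37 and 0.886 (0.876 to 0.897) for Fth1. The all-cell calls for Tfrc and Slc11a2 were also lost when each cell weighed the same (ratios of 0.623 and 0.468) or was thinned (0.623 and 0.497).

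Among the 8 gates with at least 100 cells of both tags, 64 member and gate pairs were compared, and 3 were called, all for Hmox1. In monocyte cells it was higher in A965, at 35.2 against 13.2 CPM, a ratio of 2.67 (2.29 to 3.13). In stem cells it was lower, at 7.94 against 37.5 CPM, a difference of 4.72-fold (2.94 to 7.86), and in cDC cells at 9.18 against 29.5 CPM, a difference of 3.21-fold (2.13 to 4.92). Of all genes tested, 4.21% were called in monocyte, 5.86% in stem and 5.83% in cDC cells, beside 0.795% in erythroid, 1.39% in GMP, 1.98% in pDC, 2.4% in neutrophil and 6.29% in lymphoid cells. GMP cells, at 6.73 against 8.12 CPM, neutrophil cells, at 22.7 against 21.3 CPM, and pDC cells, at 6.29 against 7.01 CPM, were not called. Nor were erythroid cells, at 0.707 against 3.72 CPM, a ratio of 0.190 (0.0604 to 0.458), or lymphoid cells, at 1.27 against 4.89 CPM, a ratio of 0.260 (0.0623 to 0.828). Both passed 1.5-fold with 1 CPM added in place of 10, on 5 and 4 counts in A965. Basophil or mast and megakaryocyte gates held under 100 cells of each tag, so no ratio was taken. Hmox1 was at 43.3 CPM in basophil or mast cells of A963, its highest gate there, and 12.6 CPM in A965. In megakaryocyte cells it was at 23.0 and 12.0 CPM. In monocyte cells Fth1, at a ratio of 1.49 (1.47 to 1.52), was called with median-of-ratios scaling, equal cell weights, thinned cells and stricter gates. Tfrc, at 0.681 (0.591 to 0.786), was called there with equal cell weights, thinned cells and stricter gates. The intervals of Slc25a37 (1.51), Ftl1 (1.36), Steap3 (0.706) and Slc40a1 (1.73) in monocyte cells also left out 1, with no call. Other gates had such uncalled shifts too. Among them Ftl1 was at 1.46 in neutrophil and 1.31 in GMP cells, but at 0.763 in stem and 0.797 in cDC cells. In GMP cells Tfrc was at 1.38, Slc40a1 at 1.31 and Steap3 at 0.679.

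Macrophages express Hmox1 strongly, and macrophage genes moved with some of these values. In A963 the cells with at least 3 summed counts of C1qa, C1qb, C1qc and Cd5l were 12.1% of stem and 12.7% of cDC cells and held 55.6% and 68.7% of the Hmox1 counts there. All 10 macrophage markers were above 0 in cDC cells, with sums of 561 and 254 CPM in A963 and A965, and 9 of 10 in stem cells, with sums of 92.6 and 25.9 CPM, with Mertk at 0. Without those cells Hmox1 in cDC cells was at 10.6 CPM in A963 and 7.25 CPM in A965 and was no longer called. In stem cells it was at 18.9 and 5.40 CPM and still was. In monocyte cells such cells were 1.74% of A963 and 4.66% of A965, the 10 markers summed to 28.2 and 89.6 CPM, and Hmox1 without the cells was at 12.0 and 31.2 CPM, so that call was kept.

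**Figure D5:**
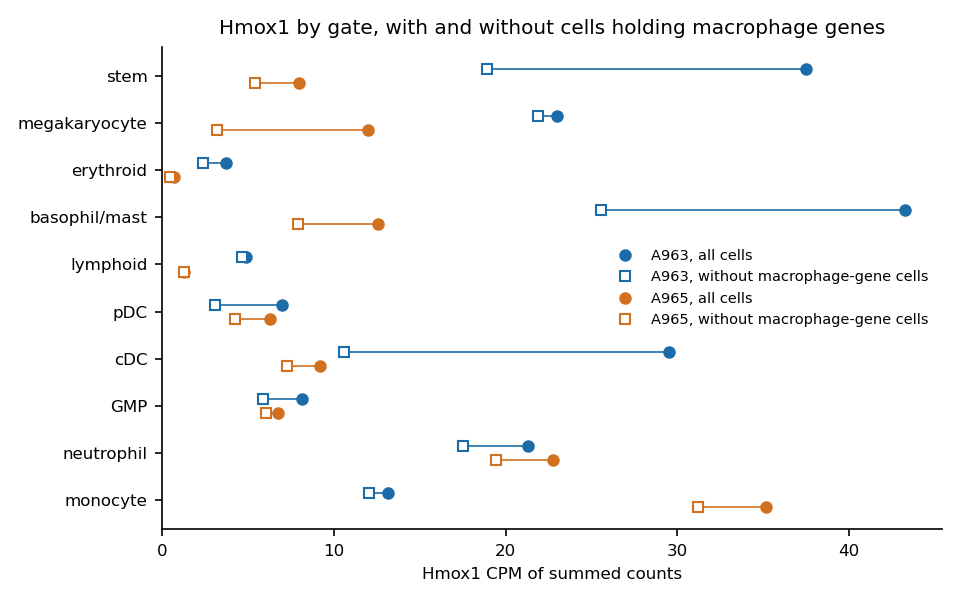
Hmox1 CPM in each gate of A963 (blue) and A965 (orange), over all cells (filled circles) and without cells that held at least 3 counts of the macrophage genes C1qa, C1qb, C1qc and Cd5l (open squares). In cDC cells of A963 the value goes from 29.5 to 10.6 CPM, while in monocyte cells of A965 it goes from 35.2 to 31.2 CPM.

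The tags loaded with 100 cells each gave 68, 104 and 73 cells for A961, A962 and A964, of which the monocyte gate held 44, 20 and 34 and the GMP gate 39 in A962. A962 thus held more cells than were loaded, while A963 and A965 held 4716 and 5567 of 15000 loaded. Xist was at 486, 409 and 59.7 CPM in A961, A962 and A964, and Y-linked genes summed to 39.2, 21.0 and 86.0 CPM. If 100 cells were loaded as labelled, not all 104 cells of A962 can have come from that load. Which cells of these tags came from the populations loaded under them was not tested. Their levels may therefore mix populations and are not read as levels of the loaded populations. Tfrc was at 20.4 CPM (14.5 to 27.7) in A961, 51.0 CPM (43.3 to 59.6) in A962 and 20.8 CPM (15.4 to 27.4) in A964, so that A962 stood above both. A962 exceeded A961 by 2.50-fold (1.76 to 3.64) and A964 by 2.45-fold (1.77 to 3.46). Slc25a37 was at 23.9, 38.7 and 20.3 CPM, and A962 exceeded A964 by 1.90-fold (1.35 to 2.72). Those were the 3 calls among 24 member and pair entries, where 8.13% (A961 over A962), 10% (A961 over A964) and 10.1% (A962 over A964) of all genes tested were called. The Tfrc call of A962 over A961 was lost with cells thinned (1.62-fold), and the Slc25a37 call without its top cell (1.66-fold).

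A few erythroid cells held a large share of those counts. The 7 erythroid cells of A962 held 44.3% of its Tfrc and 54.2% of its Slc25a37 counts, the 2 of A964 held 49.0% and 0%, and the 1 of A961 held 7.50% and 25.5%. Without erythroid cells Tfrc was at 19.5, 30.3 and 11.2 CPM in A961, A962 and A964, and only A962 over A964 was called, at 2.71-fold (1.72 to 4.42). Slc25a37 was then at 18.4, 19.0 and 21.5 CPM, with no call. The remaining members had no call over all cells. Fth1 was at 1407, 1647 and 1594 CPM and Ftl1 at 3745, 3392 and 4575 CPM, and the counting intervals of Ftl1 did not overlap between these tags. Hmox1 was at 18.8, 21.0 and 24.1 CPM and Steap3 at 10.2, 12.6 and 8.90 CPM. Slc11a2 was at 3.56, 7.10 and 8.47 CPM and Slc40a1 at 6.61, 12.9 and 10.2 CPM. Slc40a1 in the monocyte cells of these tags was at 0 of 44 cells in A961, 1 count in 20 cells of A962 and 0 of 34 cells in A964.

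Other genes of iron handling were read from 5 lists of 62 genes, of which 55 were in the table, and 42 of these reached 10 CPM in erythroid or GMP cells in each tag. Of the 55, 17 were called higher and 8 lower in erythroid cells of A963, and 18 higher and 7 lower in A965, beside 16.1% higher and 21.3% lower of all genes tested in A963 and 15.9% and 21.8% in A965. The list for making iron-sulphur clusters had 6 of 11 genes higher in both tags and 1 lower in A963, with a median log2 ratio of 0.996 and 0.74 beside 0.06 for all genes tested. In each tag the uptake list had 4 of 14 genes higher and 2 lower, the haem list 4 of 10 higher and 1 lower, and the list of Nrf2 and Bach1 targets 3 of 10 higher and 2 lower. The list for storage and regulation had 0 of 10 higher in A963 and 1 of 10 in A965, with 2 lower in each. Glrx5, a mitochondrial glutaredoxin of the iron-sulphur route, was 7.17-fold and 6.56-fold higher. Among uptake genes, the second transferrin receptor Tfr2 was 17.6-fold (13.4 to 23.6) and 21.4-fold (17.4 to 26.5) higher, at 42.9 and 52.6 CPM, and the endocytosis adaptor Picalm 8.13-fold and 5.49-fold. Blvrb, biliverdin reductase B, was at 1891 against 16.0 CPM in A963, 118-fold higher, and 103-fold higher in A965.

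Ncoa4, the receptor that delivers ferritin for breakdown, went against the ferritin heavy chain, at 22.2 against 82.1 CPM in A963 and 25.0 against 88.9 CPM in A965, 3.70-fold and 3.55-fold lower in erythroid than GMP cells. Gsr, glutathione reductase, was 8.20-fold and 9.25-fold lower, Lcn2 2.42-fold and 3.12-fold, and Trf, transferrin itself, 9.50-fold and 14.1-fold. Hfe, the haemochromatosis gene, was 9.21-fold and 16.1-fold lower. In later over early erythroid cells, 6 of the 55 (39 at 10 CPM in each tag) were called higher and 5 lower in A963, and 2 and 6 in A965. Of all genes tested, 4.22% were higher and 13% lower in A963 and 6.88% and 15.2% in A965, so the A965 counts were near the background share. Abcb10, a mitochondrial transporter known to bind mitoferrin-1, was 2.43-fold and 2.47-fold higher in later cells, and the ferredoxin Fdx1 was 3.24-fold and 2.20-fold lower.

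In monocyte over GMP cells, 3 of the 55 (37 at 10 CPM) were called higher and 5 lower in A963, and 5 and 8 (36 at 10 CPM) in A965. Of all genes tested, 10.5% were higher and 5.7% lower in A963 and 11.6% and 8.79% in A965, so the higher counts were near the background share. Blvrb was 2.74-fold and 3.47-fold higher, and Bach1, the haem-sensing repressor known to act on Hmox1, was 2.56-fold higher in A965. Lcn2, an iron-siderophore binding protein of neutrophil granules, was 2.48-fold and 3.76-fold lower there. In neutrophil over GMP cells 2 of the 55 (35 at 10 CPM) were called higher and 16 lower in A963, and 1 and 17 (36 at 10 CPM) in A965, beside 7.86% higher and 39.3% lower of all genes tested in A963 and 5.51% and 43.9% in A965. The iron-sulphur list had 8 of 11 genes lower in both tags, with a median log2 ratio of -0.80 and -1.03 beside -0.42 and -0.50 for all genes. Fdx1 was 6.18-fold and 5.89-fold lower there and Glrx5 4.28-fold and 4.68-fold. Lcn2 was no gate marker but was among the gate's 10 leading genes in both tags, so its level there is no separate result.

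Likeness of pattern was measured as the correlation of log2(CPM + 10) over 20 gate-by-tag sums, a description in which sums of 1 tag share a mouse and a library. Among about 4347 genes, Slc11a2 was most like Hpn (r = 0.96), Atp1b2 (0.94) and Tango2 (0.93), and Steap3 was most like Usp15 (0.95), Tmem208 (0.94) and Fam210b (0.94). For Slc25a37 the closest were Fbxo7 (0.88), Mtfr1 (0.88) and Fbxo3 (0.84), and for Fth1 they were Diablo (0.93), Slc29a1 (0.92) and Ciao2b (0.91). For Tfrc they were Golm1, Slc29a1 and Dnajc9, at 0.83, 0.83 and 0.82, and for Slc40a1 Wipi1 (0.91), Larp4b (0.89) and Rab6a (0.87). Ftl1 was most like its own copies Ftl1-ps1 (0.99) and Ftl2-ps (0.97) and then Plin2 (0.90). Hmox1 had the loosest likeness, to Tln1, Bach1 and Lst1, at 0.73, 0.73 and 0.72.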

How the data were processed

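The authors deposited 1 table of counts, whole numbers for each gene in each cell, with the tag of each cell in its column name, per the file headers. Whether these are counts of reads or of molecules, and the aligner, annotation and counting tool, are not given in the sources used here. The submitters' processing notes name GRCm38, Seurat 4.2.0 and R 4.2.1 but not what each was used for. Values of 2 were 54.7% as many as values of 1. Of 10731 cells, 10535 carried a single tag, and 196 named doublet or not detected were not used. No barcode number was shared between cells. Summed counts ran from 1965440 (A961) to 175876760 (A965). Leaving out cells under 500 genes or over 20% mitochondrial counts gave 10528. Scrublet (scanpy 1.11.5) called 223 doublets, which stayed in.

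For the gates, log2(counts per 10000 + 1) of each marker was centred, scaled and averaged per list. A cell joined the gate with its highest score if that was at least 0.5 and at least 0.25 above the next, cuts set after the scores were seen. Cells within 0.1 of a cut were 0.258% of the erythroid and up to 13.7% (lymphoid) of other gates. Counts were summed by gate and tag and scaled to CPM. Ratios have exact conditional binomial intervals, levels exact Poisson and shares Clopper-Pearson intervals. Within-gate tag ratios needed 100 cells of each tag and other ratios 50 cells. All 8 members are named in every comparison. Of the listed genes, only those called, with at least 20 CPM and among the 4 largest each way could be named, and which of them to print was chosen after their values were seen. Members and lists were chosen with earlier results of these data known. On simulated erythroid over GMP counts, 95.0% of intervals for A963 (7574 genes) and 96.0% for A965 (7662 genes) held a true 2-fold change, and 94.0% of such genes were called in each. The simulated counts were Poisson draws, the counting model that the intervals assume. They therefore check the calculation only and hold no variation between cells or mice. Python 3.11.15, numpy 2.4.6 and scipy 1.17.1 were used, with coordinates from GENCODE (GRCm38). Alternatives were another scaling, pseudocount, cell weight, depth, doublet and cell filter, pseudogene rows and gate cuts. Leaving out macrophage-gene cells, the top cell and erythroid cells was added after seeing the data.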

Additional observations from a re-analysis of the deposited data

Results flagged for a closer look

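Hmox1, which breaks down haem, differed between the tags A965 and A963 in opposite directions in different gates, and this difference between gates was not tested because there was 1 library. The ratio of A965 to A963 was 2.67 in monocyte-gated cells, 0.212 in stem-gated cells and 0.311 in cDC-gated cells. Basophil or mast cells (43.3 CPM in A963, 12.6 CPM in A965) and megakaryocyte cells (23.0 and 12.0 CPM) were too few for a ratio. The counting interval lay above 1 in monocyte cells and below 1 in stem and cDC cells, and also below 1, with no call, in erythroid (0.0604 to 0.458), lymphoid (0.0623 to 0.828) and GMP (0.689 to 0.999) cells. Macrophage genes moved with the stem, cDC and monocyte values (in monocyte cells the 10 markers had sums of 28.2 and 89.6 CPM for A963 and A965), and without the cells that held them Hmox1 was at 18.9 and 5.40 CPM in stem cells of A963 and A965, at 10.6 and 7.25 CPM in cDC cells and at 12.0 and 31.2 CPM in monocyte cells. A difference between tags cannot be told apart from one between mice, their sex, sorted populations or treatments.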

How the results depend on the processing

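Of 159 member ratios recomputed under 12 alternatives (1827 values), 1559 stayed inside the counting interval, 268 left it, and 0 of the called ratios changed direction. The 44 calls were kept with 1 CPM added, without globins, without Scrublet calls, without the cell filter and with pseudogene rows added. With median-of-ratios scaling 38 were kept, with thinned cells 38, with equal cell weights 41, without macrophage-gene cells 42 and without the top cell 43. Looser gates kept 37 of 38 and stricter gates 34 of 37. For neutrophil over GMP cells, median-of-ratios gave 4 calls in A963 (from 7) and 3 in A965 (from 5). For A965 over A963 over all cells, equal weights gave 1 and thinning 1 (from 3), and leaving out erythroid cells gave 0. Within gates, 1 CPM added gave 10, equal weights 6 and thinning 5 (from 3). Among A961, A962 and A964, 1 CPM added gave 7, equal weights 5, thinning 6 and leaving out erythroid cells 1 (from 3). For the other iron genes, 1 CPM added gave 15 in A963 (from 8) and 21 in A965 (from 13) for monocyte cells, and 29 and 31 (from 18 and 18) for neutrophil cells. Entries with a transcript in at least 10% of cells were 97, and 117 unthinned. The causes of these moves were not tested. No paired analysis was possible because there was 1 library with no replicate numbers.

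Limits are the 1 library, the unlabelled tags, gates rebuilt from markers, and the few counts of Hmox1, Slc11a2, Steap3 and Slc40a1 in some gates, where small differences were not detectable at this depth.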
